A study of Ovis aries with 6 samples.

Results

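Dermal matrix genes were examined in whole-thickness skin (epidermis and dermis) from the side of the body through 5 genes, MMP2, TIMP1, TIMP3, BGN and SERPINF1. The breeds compared were small tail Han sheep, which grow coarse wool, and Aohan fine wool sheep, named for theirs. The genes were taken as every non-control probe of the array that carries a sheep RefSeq mRNA accession of 1 of these genes. This gave 8 of the 15008 probes, for 5 of the 476 gene symbols that the array's RefSeq accessions name. MMP2 had 3 probes, TIMP1 had 2, and TIMP3, BGN and SERPINF1 had 1 each.

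Skin of about 1 cm2 was taken from 3 sheep of each breed, 1 ram and 2 ewes at 12 months of age, reared in pens and given no treatment beyond the local anaesthesia for sampling. Total RNA of each sheep was hybridised to a 1-colour (Cy3) Agilent sheep array. The sheep of a breed shared 1 sire, and the 3 arrays of a breed were scanned together, so breed, sire and scan cannot be told apart. The study asked which genes differ in skin between a breed of fine and a breed of coarse wool. The labels do not say which animal was the ram, and TIMP1 and BGN lie on the X chromosome.

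The dermis is built from collagen fibres set in proteoglycans, and it is remodelled by secreted proteases and held in check by their inhibitors. MMP2 (gelatinase A) is a secreted metalloproteinase that cleaves denatured collagen and basement membrane collagen. TIMP1 and TIMP3 are tissue inhibitors that block the active site of metalloproteinases, and TIMP3 stays bound to the matrix. BGN (biglycan) is a small leucine-rich proteoglycan that binds collagen. SERPINF1 (pigment epithelium-derived factor) is a secreted serpin that inhibits no protease, binds collagen and restrains the growth of blood vessels.

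The signal is given as log2 of the background-corrected spot intensity minus the log2 of the array's 75th percentile, so that 0 is the 75th percentile. How bright a probe is depends on the probe as well as on its transcript, so each probe was compared only with itself in other sheep. The 75th percentile lay between 1103 and 2309 intensity units over the 6 arrays. Spots of the 8 probes carried no outlier mark and were not saturated. Of the 8 probes, 6 were well above background on all 6 arrays, 1 on 5 arrays and 1 on 2 arrays, and the first 7 entered the test of all 12481 probes that reached this level on at least 3 arrays. The comparison used limma with Benjamini-Hochberg adjustment over all tested probes, and each log2 change is the Aohan mean less that of small tail Han sheep, with the standard error (SE) and the 95% interval of the fit. An exact permutation test of 3 sheep against 3 cannot give a two-sided p below 0.1.

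SERPINF1 was the 1 gene of the 5 that differed between the breeds, and it was up-regulated in Aohan fine wool sheep. The other 4 genes did not pass. Thus 1 of 7 tested member probes passed, as did 15.2% of all tested probes. That probe was higher in Aohan sheep, as were 7.57% of all tested probes, and none was lower, as were 7.6%. In Aohan sheep the log2 signal of SERPINF1 was -2.49, -2.18 and -2.67 in replicates 1 to 3. In small tail Han sheep it was -3.27, -3.81 and -4.03. All 3 Aohan sheep lay above all 3 small tail Han sheep, with a gap of 0.60 between the lowest Aohan and the highest small tail Han sheep. The mean of the Aohan sheep was -2.44 ± 0.25 (SD, n = 3). That of the small tail Han sheep was -3.70 ± 0.39 (SD, n = 3). The log2 change was 1.26 (SE 0.24, 95% interval 0.70 to 1.81, adjusted p = 0.0110), or 2.39-fold with an interval of 1.63-fold to 3.51-fold. The exact permutation test gave p = 0.1, two-sided. The spots were dim but above background on every array, with a median spot signal 3.31 to 12.6 times the local background. Breeds did not overlap at 2 of the 7 tested member probes, against 34.2% of all tested probes. SERPINF1 was the one with Aohan sheep higher, against 17.8% of all tested probes, and an MMP2 probe described below the one with Aohan sheep lower, against 16.4%.

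**Figure D1:**
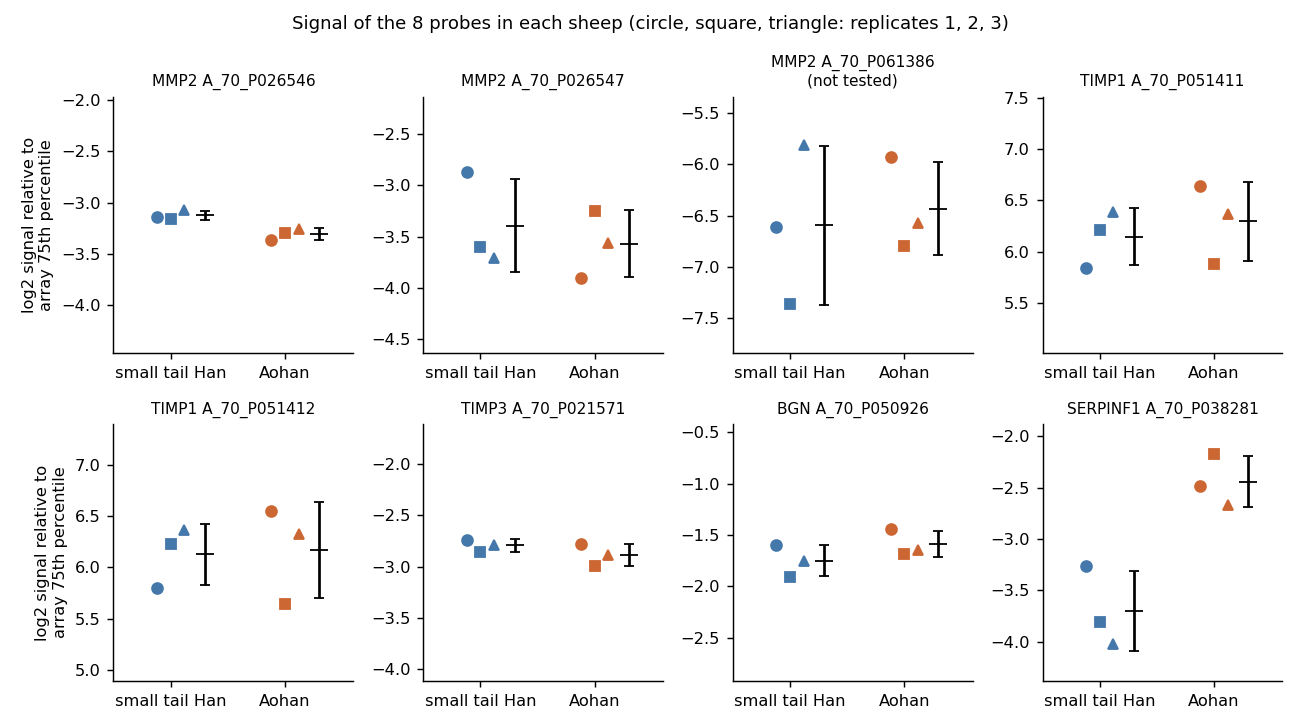
Log2 signal relative to the array's 75th percentile (vertical axis, 2.5 log2 units in every panel but at different levels) of the 8 probes in each sheep, with circles, squares and triangles for replicates 1, 2 and 3, and with the mean and SD of each breed in black. The sheep of both breeds separate by 0.60 at SERPINF1 and by 0.10 at MMP2 A_70_P026546, and they overlap at the other 6 probes.

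SERPINF1 kept its direction under all 15 other ways of processing, with log2 changes of 0.86 to 1.47 and adjusted p of 0.00424 to 0.0850, and it passed in 13 of them. With replicate 2 of the small tail Han sheep left out it was no longer past the threshold (log2 change 1.20, adjusted p = 0.0518), nor was it with the methods' t-test after the same adjustment (adjusted p = 0.0850). With normexp background correction the change was 0.86, and the gap between the breeds fell to 0.024, with small tail Han replicate 1 close to the Aohan sheep.

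**Figure D2:**
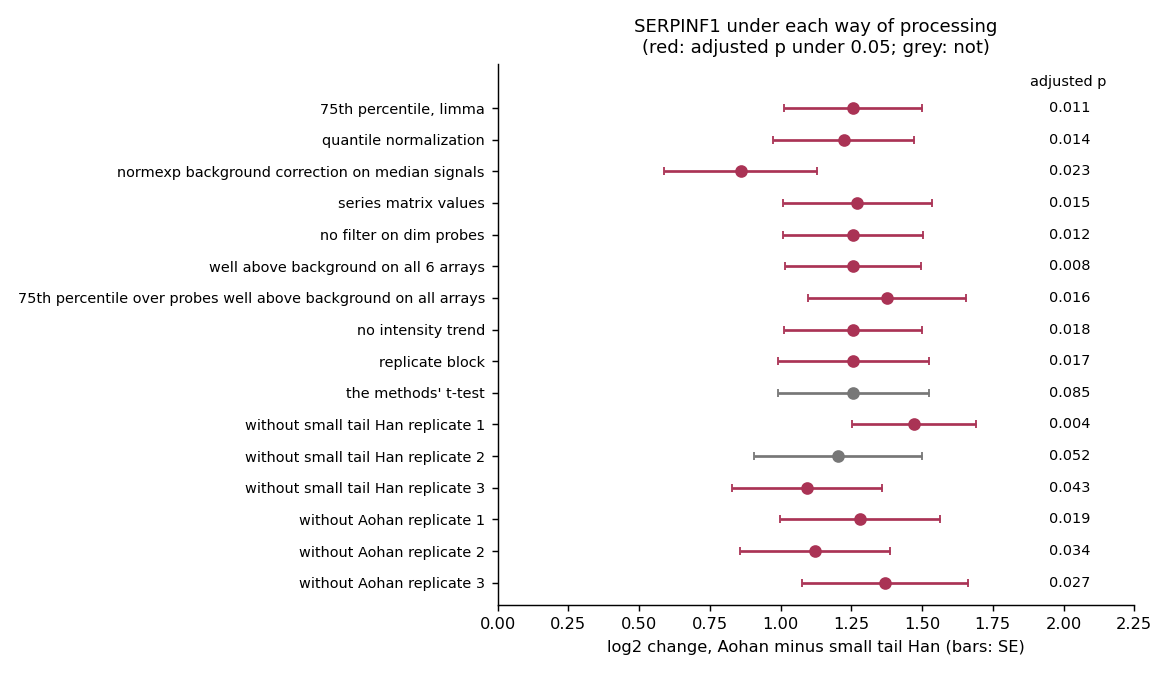
Log2 change of SERPINF1 (horizontal axis, Aohan minus small tail Han, points with SE bars) under the main processing and 15 alternatives, with the adjusted p at the right, red where it is under 0.05. The values lie between 0.86 and 1.47, and the 2 grey points are the methods' t-test and the fit without small tail Han replicate 2.

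Markers of other cell types also moved between the breeds, and in bulk skin fewer cells of a type and less RNA per cell cannot be told apart. Of 6 tested leukocyte genes, 3 were higher in Aohan sheep, as were 7.57% of all tested probes. They were CD3E and CD3D, CD3 chains of the T cell receptor complex, and the leukocyte integrin ITGB2. The other probes of CD3E and ITGB2 also passed (adjusted p = 0.0104 and 0.0284). That of CD3D did not (log2 change 0.73, adjusted p = 0.088). The log2 of the summed signals of the 6 genes was 2.94 to 3.23 in Aohan against 1.83 to 2.50 in small tail Han sheep. CD3E, the brightest of the 6, weighs most in this sum. CD4, the remaining listed leukocyte gene with a RefSeq name, did not reach the detection level and was not tested. CNN1 (calponin of smooth muscle), the 1 listed marker of smooth muscle and pericytes with a RefSeq name, was lower, at 3.85 to 4.59 against 5.36 to 5.83 (log2 change -1.31, adjusted p = 0.00936). The part of these cells in the SERPINF1 difference was not tested. DCN (decorin), the 1 fibroblast marker with a RefSeq name, was well above background on all arrays and had a change of -0.08 (SE 0.30, adjusted p = 0.888). The keratinocyte marker SFN and the wool follicle keratins KRT27 and KRT35 were likewise well above background on all arrays, and none of the 3 passed. None passed among 2 endothelial, 3 skeletal muscle and 3 adipocyte genes tested by RefSeq name. Nor did the 1 such melanocyte gene, TYR (adjusted p = 0.0511, and 0.871 at its other probe). The 2 endothelial genes, SELE and SELP, were nonetheless lower in Aohan sheep without overlap, as were 16.4% of all tested probes. Log2 of their summed signals was -2.785 to -2.573 in Aohan against -2.355 to -2.198 in small tail Han sheep. The study reported VCAM1, also on the endothelial list, as higher in Aohan sheep at a probe without a RefSeq name.

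MMP2, the protease of the set, did not pass at either tested probe. At A_70_P026546, the probe that stands for the gene by its higher mean signal, the log2 signal was -3.36, -3.29 and -3.25 in Aohan replicates 1 to 3 and -3.14, -3.15 and -3.07 in small tail Han replicates 1 to 3. Every Aohan sheep lay below every small tail Han sheep, yet the gap was only 0.10. Values at this probe were unusually even among sheep of a breed, with an SD of 0.055 in Aohan and 0.045 in small tail Han sheep, where the median SD over all tested probes was 0.27 and 0.23. The log2 change was -0.18 (SE 0.17, 95% interval -0.57 to 0.21, adjusted p = 0.532), and the exact permutation test gave p = 0.1. Limma draws the spread of a probe towards that of probes of like brightness, so this SE is larger than the sheep alone would give. The sign held in 14 of the 15 alternatives, and the probe passed in none. The breeds stayed apart with quantile normalization (gap 0.15) and in the values that the authors normalized (gap 0.16). With normexp the sign turned, to 0.03, and the breeds overlapped.

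At the MMP2 probe A_70_P026547 the sheep were more spread out and the breeds overlapped. Its log2 signal was -3.90, -3.25 and -3.56 in Aohan and -2.87, -3.60 and -3.70 in small tail Han sheep. Here 1 Aohan array was not well above background, and small tail Han replicate 1 was the brightest. The log2 change was -0.18 (SE 0.28, adjusted p = 0.726), and without small tail Han replicate 1 it was 0.08. The difference between the probes of MMP2 in the same sheep ran from -0.27 to 0.63. The remaining MMP2 probe, A_70_P061386, lay between -7.36 and -5.81 and was well above background on 1 array of each breed, so it was not tested and no fold is given.

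Between them the inhibitors differed in how much they varied from sheep to sheep, and neither passed. TIMP1 was bright in all sheep, at 93422 to 145710 intensity units at A_70_P051411. Its log2 signal there was 6.64, 5.88 and 6.37 in Aohan replicates 1 to 3 and 5.84, 6.21 and 6.38 in small tail Han replicates 1 to 3. The highest and the second lowest value both belonged to Aohan sheep, and the breeds overlapped. The log2 change was 0.15 (SE 0.27, 95% interval -0.45 to 0.75, adjusted p = 0.755). The other TIMP1 probe, A_70_P051412, followed the first closely, with a difference between the probes of -0.01 to 0.23 over the 6 sheep. Its log2 change was 0.04 (SE 0.29, 95% interval -0.61 to 0.70, adjusted p = 0.939).

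How far sheep of a breed lay apart in TIMP1 depended on the scaling. At A_70_P051411 the Aohan sheep spanned 0.76 log2 units and the small tail Han sheep 0.54 relative to the 75th percentile. After quantile normalization these ranges were 0.33 and 0.16, and in the values that the authors normalized they were 0.30 and 0.16. For SERPINF1 the ranges were 0.49 and 0.76 by the percentile and 0.49 and 0.83 by quantiles, so its spread did not shrink in this way. TIMP1 did not pass under any of these scalings.

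**Figure D3:**
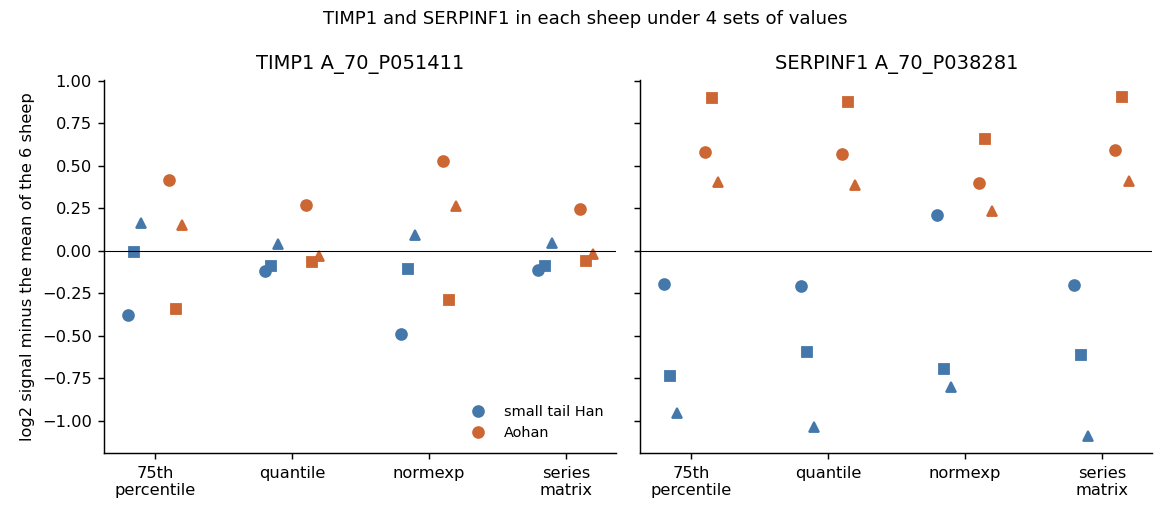
Log2 signal of TIMP1 (A_70_P051411) and SERPINF1 (A_70_P038281) in each sheep minus the mean of the 6 sheep (vertical axis) under 4 sets of values (horizontal axis), with symbols for replicates 1 to 3 as circle, square and triangle. TIMP1 values draw together with quantile normalization, where the Aohan range is 0.33 against 0.76 by the percentile, and SERPINF1 keeps Aohan sheep above small tail Han sheep in all 4 sets.

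TIMP3 was nearly level across the 6 sheep. Its log2 signal was -2.78, -2.99 and -2.88 in Aohan and -2.74, -2.86 and -2.79 in small tail Han sheep. Aohan replicates 2 and 3 were the lowest, and replicate 1 lay within the small tail Han values. The log2 change was -0.09 (SE 0.17, 95% interval -0.47 to 0.29, adjusted p = 0.759). The sign turned with normexp (0.025) and with the percentile taken over probes detected on every array (0.027). In the sheep reference TIMP1 overlaps ARAF, SYN1 and ZNF81, and TIMP3 overlaps SYN3. SYN1 and SYN3 are both synapsin genes.

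BGN did not pass, and its sheep overlapped. The log2 signal was -1.44, -1.68 and -1.64 in Aohan and -1.60, -1.91 and -1.75 in small tail Han sheep. The highest value was in Aohan replicate 1 and the lowest in small tail Han replicate 2. The log2 change was 0.16 (SE 0.16, 95% interval -0.20 to 0.53, adjusted p = 0.551). BGN kept this sign under all 15 alternatives, at 0.07 to 0.28, and passed under none. For the 6 tested probes of MMP2, TIMP1, TIMP3 and BGN, every 95% interval lay within a change of 2-fold in either direction, from 0.569-fold to 1.69-fold at its widest, so differences inside these intervals remain possible.

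**Figure D4:**
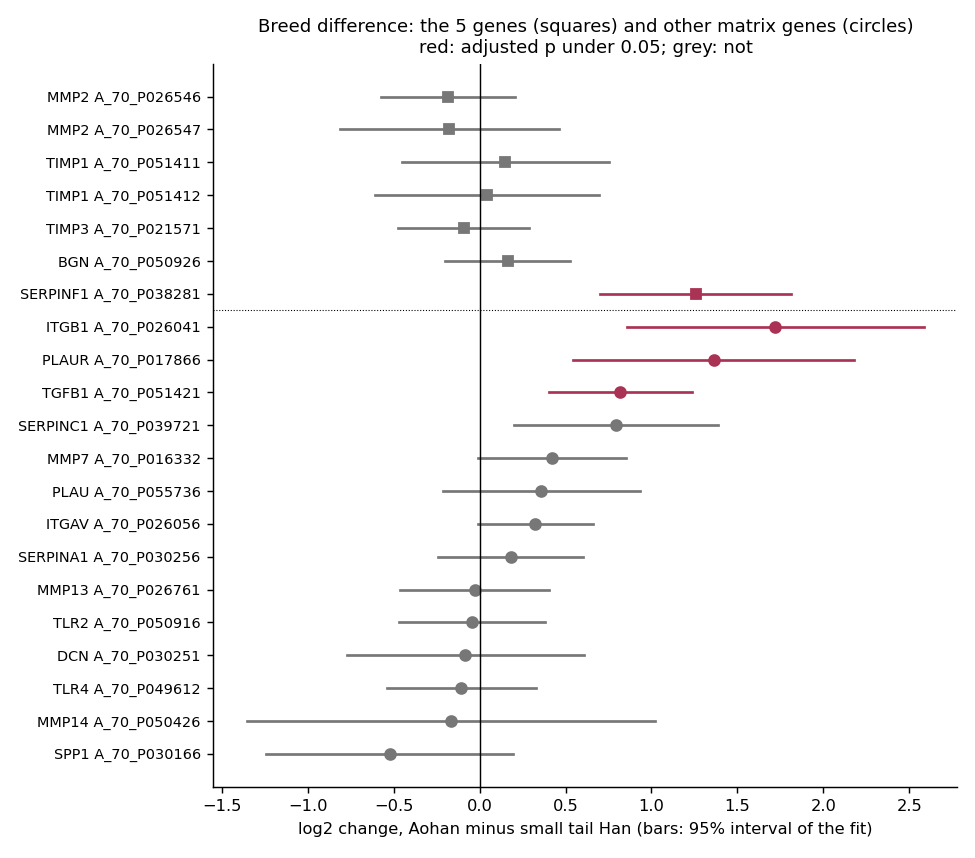
Log2 change between the breeds (horizontal axis, Aohan minus small tail Han) with the 95% interval of the fit for the 7 tested probes of the 5 genes (squares) and for 14 other matrix genes (circles, 1 probe per gene), red where the adjusted p is under 0.05. SERPINF1 at 1.26 is the 1 red square, the intervals of the other 6 squares cross 0, and the 3 red circles are ITGB1, PLAUR and TGFB1.

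Protease and inhibitor were also set against each other within each sheep, as a description without a test. MMP2 minus TIMP1 was -10.0, -9.17 and -9.62 in Aohan replicates 1 to 3 and -8.98, -9.37 and -9.45 in small tail Han replicates 1 to 3 on the log2 scale. The size of these values carries the brightness of the probes, so that only their variation between sheep can be read. The means were -9.60 ± 0.42 (SD, n = 3) and -9.27 ± 0.25 (SD, n = 3), a difference of -0.33, and the breeds overlapped. With quantile normalization the difference was again -0.33, the SDs were 0.22 and 0.078, and the breeds did not overlap. MMP2 minus TIMP3 was -0.58, -0.30 and -0.37 in Aohan and -0.40, -0.30 and -0.28 in small tail Han sheep. Here the breed means differed by -0.09, less than the SD of 0.15 among Aohan sheep. Aohan replicate 1 was the lowest sheep in both differences.

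**Figure D5:**
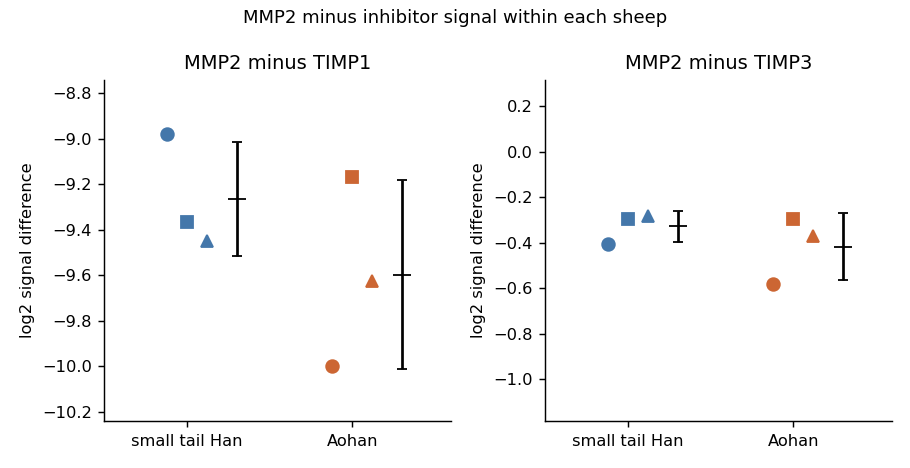
Log2 signal of MMP2 (A_70_P026546) minus that of TIMP1 (A_70_P051411) or TIMP3 (A_70_P021571) in each sheep (vertical axes of equal length at different levels), with circles, squares and triangles for replicates 1, 2 and 3 and the mean and SD in black. The breeds overlap in both panels, and Aohan replicate 1, at -10.0 and -0.58, is the lowest sheep in each.

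The members did not move as 1 group over the 6 sheep. Aohan replicate 1 was the highest sheep for TIMP1 and BGN and the lowest for MMP2 at both tested probes. Small tail Han replicate 1 was the highest for TIMP3 and the lowest for TIMP1 at A_70_P051411. Pearson's r between members over the 6 arrays ran from -0.90 for MMP2 with SERPINF1 to 0.63 for BGN with SERPINF1, and was 0.28 between the inhibitors. These values are descriptions over 6 arrays that share their scaling and fall into breeds.

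Other matrix genes came from lists of 114 symbols, of which 16 had a RefSeq-named probe and 15 were tested. Of these 3 were higher in Aohan fine wool sheep and none lower by limma, where 7.57% of all tested probes were higher and 7.6% lower, and 5 had an unadjusted p under 0.05, as had 29.4% of all tested probes. Their median log2 change was 0.18, beside 0.025 over all tested probes. No listed collagen or TIMP besides the members had such a probe. The 3 genes that passed are receptors and a growth factor rather than matrix proteins. They did so unevenly, since no gene of these lists passed when replicate 2 or replicate 3 of the small tail Han sheep was left out or with the methods' t-test, and 1 passed without Aohan replicate 2 or 3.

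Among metalloproteinases, none of the 3 tested passed. MMP7 (matrilysin), which is made by gland epithelium, was at 1.78, 2.11 and 1.74 in Aohan and 1.68, 1.13 and 1.56 in small tail Han sheep. Aohan sheep were higher without overlap at both MMP7 probes, as at 17.8% of all tested probes. The log2 changes were 0.42 (adjusted p = 0.181) and 0.42 (adjusted p = 0.172). MMP13 (collagenase 3) had a change of -0.03 (SE 0.19, adjusted p = 0.939). MMP14, the membrane metalloproteinase that activates MMP2 at the cell surface, was well above background on 2 of 3 arrays of each breed, with a change of -0.17 (SE 0.52, adjusted p = 0.870). Another MMP14 probe, well above background on 3 of 6 arrays, had a change of -0.52 (SE 0.37, adjusted p = 0.3995). The remaining MMP14 probe was well above background on no array and was not tested.

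In the plasminogen system and its serpins, 1 of 5 tested genes was higher in Aohan sheep, as were 7.57% of all tested probes. PLAUR, the receptor that holds urokinase at the cell surface, was at -4.12, -2.96 and -3.23 in Aohan and -4.62, -5.33 and -4.44 in small tail Han sheep. Its log2 change was 1.36 (SE 0.36, adjusted p = 0.0364), it was well above background on 2 of 3 arrays of each breed, and with normexp it was 0.55 and did not pass. SERPINC1 (antithrombin), a protease-inhibiting serpin, had a change of 0.79 (SE 0.26, adjusted p = 0.0758). Aohan sheep were higher there without overlap, as at 17.8% of all tested probes. SERPINC1 passed under 2 alternatives, the filter on all 6 arrays (adjusted p = 0.0489) and the percentile over probes detected on every array (log2 change 0.91, adjusted p = 0.0340), while over all 15 its adjusted p ran up to 0.498.

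Proteoglycans and matricellular proteins were represented by 1 tested gene each. DCN, like BGN a small leucine-rich proteoglycan, was at 7.58, 6.85 and 7.66 in Aohan and 7.14, 7.48 and 7.72 in small tail Han sheep, and its other probe had a change of 0.19 (adjusted p = 0.596). SPP1 (osteopontin) had a change of -0.52 (SE 0.32, adjusted p = 0.312), and 3 of 6 arrays measured it well above background.

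Of 5 tested receptors and ligands tied to the members, 2 were higher in Aohan sheep, as were 7.57% of all tested probes. TGFB1, a growth factor that biglycan and decorin bind, was at -1.04, -0.63 and -1.09 in Aohan and -1.53, -1.77 and -1.91 in small tail Han sheep. The breeds did not overlap there, with Aohan sheep higher, as at 17.8% of all tested probes. The integrin chain ITGB1, a collagen and fibronectin receptor subunit, was at -2.71, -1.91 and -2.47 in Aohan and -3.20, -4.65 and -4.40 in small tail Han sheep. Its partner chain ITGAV had a change of 0.33 (SE 0.15, adjusted p = 0.184), and 0.40 at its other probe (adjusted p = 0.137). Aohan sheep were higher without overlap at both ITGAV probes, as at 17.8% of all tested probes. VEGFA, on the same list, stayed below the detection level at its RefSeq-named probes in all 6 sheep and was not tested there. The study reported VEGFA as lower in Aohan sheep at another probe.

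The named genes whose pattern over the 6 arrays was most like each member were found by Pearson's r among 418 genes with a RefSeq name, as a description. For SERPINF1 these were CFL1 (cofilin, which severs actin filaments, r = 0.992), CALM2 (a calmodulin gene, next in order) and PTGFR (the prostaglandin F receptor, r = 0.989). All 3 were higher in Aohan sheep, with log2 changes of 2.16, 1.45 and 0.88 (adjusted p = 0.00291, 0.00904 and 0.0376). This direction follows from how they were chosen, since SERPINF1 separates the breeds. For MMP2 they were KLK1 (tissue kallikrein, r = 0.985), DGAT1 (of triglyceride synthesis, r = 0.978) and CLOCK (a circadian transcription factor, r = 0.973). All 3 were lower in Aohan sheep, which again follows from the choice, since the MMP2 probe used also separates the breeds. MMP2 itself did not pass, and its range over sheep was far smaller, with a log2 change of -0.18 beside -2.58, -0.65 and -1.76.

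For TIMP1 the nearest patterns were NPY (neuropeptide Y, r = 0.989), NUDT16 (r = 0.989) and PRKACA (a catalytic subunit of protein kinase A, r = 0.988), none of which passed. TIMP1 had 40 of the 418 genes above an r of 0.9 (9.57%), which fell to 7 (1.67%) after quantile normalization. For SERPINF1 the counts were 32 and 29. For TIMP3 the nearest were TLR4 (a receptor of bacterial lipopolysaccharide, r = 0.949), PTGS2 (cyclooxygenase 2, r = 0.929) and ATP5MC1 (r = 0.904), and for BGN they were ITGAM (a leukocyte integrin chain, r = 0.925), CYM (chymosin, r = 0.913) and PHKG2 (r = 0.878). None of these 6 genes passed, and only 4 genes for TIMP3 and 2 for BGN were above 0.9.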

How the data were processed

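Per the file headers, scans were read by version 10.5.1.1 of Agilent's Feature Extraction, and the authors deposited Cy3 intensities per spot, background-corrected and not normalized between arrays. The series matrix, an alternative here, was deposited as log2 values already normalized across the 6 arrays, by a method not given in the sources used here. Control spots and spots with outlier marks were dropped, log2 was taken, spots of a probe were averaged and each array was scaled by subtracting the 75th percentile of its probes other than controls. A probe entered the test if 3 or more arrays had it well above background and each breed had 2 or more values. The test was two-sided, by limma 3.58.1 in R 4.3.3 (eBayes with trend, Benjamini-Hochberg at 0.05), a step tested on simulated data. The number of arrays limits the precision. Replicates were separate animals. The labels do not name the ram, so sex was left out.

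Probes were named by RefSeq mRNA accession from the sheep reference (assembly ARS-UI_Ramb_v3.0), which held 734 of 758. The members and lists were chosen with earlier results of these data known. The genes named are the 5 members, from each matrix list those that passed or, if under 3 did, the 3 of smallest p, and for each member the 3 genes of highest r. SERPINA1, PLAU, TLR2 and VEGFA of these lists, and the genes that overlap TIMP1 and TIMP3, are named outside this rule. A gene that this rule also names is not reported here. Cell markers are given as counts and ranges, and those named beyond this were named after their values were seen. A gene is represented by its tested probe of highest mean signal.

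Alternatives were quantile normalization, normexp (offset 50, on median signals, since the files hold no mean spot signals), the series matrix, other filters and percentile sets, no trend, a replicate block, the methods' t-test and leaving out each array. Figures used matplotlib 3.10.9. No sequences are printed.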

Additional observations from a re-analysis of the deposited data

How the results depend on the processing

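SERPINF1 was the only member whose call changed: it was lost with the methods' t-test (1.26, adjusted p = 0.0850) and, among fits leaving out 1 array, which gave 1.09 to 1.47, without small tail Han replicate 2. Members that did not pass stayed so. Signs of members and of other matrix list genes turned as follows. With normexp MMP2 A_70_P026546 was 0.032, TIMP3 0.025, MMP2 minus TIMP3 0.0071, SERPINA1 -0.037, TLR2 0.039, MMP13 0.034 and TLR4 0.035. With the percentile over probes detected on every array, which moved the median change of all probes from 0.025 to 0.14, TIMP3 was 0.027, DCN 0.036, TLR2 0.074, MMP13 0.090 and TLR4 0.014. Leaving out 1 array gave ranges of -0.34 to 0.084 for MMP2 A_70_P026547, -0.021 to 0.36 for TIMP1 A_70_P051411, -0.14 to 0.31 for A_70_P051412, -0.24 to 0.17 for DCN, -0.13 to 0.043 for TLR2, -0.14 to 0.049 for MMP13 and -0.73 to 0.12 for MMP14. Probes higher in Aohan sheep numbered 945, with 348 to 1230 when 1 array was left out and 321 with the methods' t-test, and lower ones 948, with 441 to 1018 and 391. Matrix list genes higher numbered 3, with 0 to 3 when 1 array was left out and 0 with the methods' t-test. The other alternatives kept these counts within 1.5 times, except the replicate block.

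Same-numbered sheep shared no link in the labels. Their deviations correlated at -0.22, -0.37 and 0.28, and those of differently numbered sheep at -0.30 to 0.47. Deviations of 3 sheep about their breed mean cannot settle whether the number pairs them, so the block was run only as an alternative. With the replicate block 565 probes were higher, SERPINF1 passed (adjusted p = 0.0174) and no other member did. A block on slide or scan was not run, since each scan holds 1 breed. The filter on all 6 arrays leaves out MMP2 A_70_P026547, PLAUR, PLAU, MMP14 and SPP1, which have no value there. The members other than TIMP1 lay at 2.04 to 15.1 times the local background where tested, which limits the precision.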
